A study of Homo sapiens with 6 samples.

Results

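S100 genes encode small calcium-binding proteins, and 10 of them were followed here in human mammary epithelial cells under control siRNA and BRCA2 siRNA. The members were chosen by symbol from a table of 57820 gene rows: S100A2, S100A4, S100A6, S100A7, S100A8, S100A9, S100A10, S100A11, S100A14 and S100A16. The list was selected on these same libraries: their log2 values and the differences between groups were known when it was proposed. The members' differences and tests therefore describe these libraries and are not independent evidence. Of the 10, 9 cleared a minimum level and were among the 14763 genes tested, and S100A7 did not.

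The cells were hTert-HME1, a human mammary epithelial line immortalised with telomerase, transfected with siRNA and then cultured in mammary epithelial growth medium. Polyadenylated RNA was sequenced in 6 libraries. Control siRNA (labelled control-1) with EGF in the medium gave 3 libraries: control P4 at passage 4, and controls A and B at passage 6. The siRNA against BRCA2 (labelled BRCA2-2) gave 1 library with EGF at passage 4 and 2 libraries without EGF, replicates A and B at passage 6. EGF, epidermal growth factor, is the ligand of the receptor EGFR. The series text also describes control cells without EGF and further BRCA2 siRNA libraries, which were not analysed here. A difference between the cells without EGF and the controls is therefore one of siRNA and medium together, and siRNA, medium and passage cannot be told apart across all 6 libraries. All cells are of 1 line, and 1 siRNA label stands for each target.

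S100 proteins carry a pair of EF-hand motifs that bind calcium, mostly work as dimers, and change shape on calcium binding so that they can grip a partner protein. Most of their genes lie in a cluster on chromosome 1, beside the cornified envelope genes of the epidermal differentiation complex. In epithelia, S100A10 and S100A11 partner with annexins at membranes, S100A2 and S100A6 are abundant in basal cells, and S100A7, S100A8 and S100A9 are known from inflamed or wounded skin. S100A8 and S100A9 pair as calprotectin, which is also a major protein of neutrophils.

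Values are the log2 values that the authors deposited, already normalised between libraries, so the depth of each library is unknown. A difference of 1 is a factor of 2, written as a fold where given. The labels give replicate letters but do not say that the replicates came from separate cultures, so p-values measure the spread between these libraries only. BRCA2 measured 10.19, 11.25 and 11.24 in controls P4, A and B, 10.88 in the library labelled BRCA2-2 with EGF, and 11.15 and 10.89 in replicates A and B without EGF. At passage 4 BRCA2 was thus higher in the library labelled BRCA2 siRNA than in its control, against the label. Controls A and B lay close together: the gene-wise differences of tested genes had an SD of 0.119 between them, 0.308 between the replicates without EGF, and 0.485 to 0.509 between control P4 and controls A and B. Basal keratins were high in every library (KRT5 16.81 to 17.86, KRT14 16.56 to 17.62), and the 8 listed basal markers summed to 18.29 to 19.18. The 8 listed luminal markers summed to 11.56 to 12.17, with KRT8 (10.66 to 11.24) and KRT18 (10.27 to 11.20) highest, GATA3 at 5.99 to 6.36, and KRT19 (0.91 to 1.12), EPCAM (-0.18 to 0.09) and ELF5 (-1.98 to -1.95) lowest. Bulk libraries cannot tell fewer cells of a type from less RNA per cell.

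The promoters of 4 members are shown first, because S100A8 and S100A9 had the widest ranges over the libraries and S100A6 and S100A16 were the members called lower without EGF at passage 6. Each is the 250 bases before the transcription start on the gene's own strand, from RefSeq on GRCh38.p14; the deposited values were made on another build, hg19. S100A8 is at chr1:153391074-153391323 on the minus strand and S100A9 at chr1:153357604-153357853 on the plus strand. S100A6 is at chr1:153535992-153536241 and S100A16 at chr1:153613138-153613387, both on the minus strand. RefSeq gives S100A8 3 starts, of which the middle one is used, and S100A16 2 starts, of which the upstream one is used. Capitals mark a TATA box, searched as TATAAA.
S100A8: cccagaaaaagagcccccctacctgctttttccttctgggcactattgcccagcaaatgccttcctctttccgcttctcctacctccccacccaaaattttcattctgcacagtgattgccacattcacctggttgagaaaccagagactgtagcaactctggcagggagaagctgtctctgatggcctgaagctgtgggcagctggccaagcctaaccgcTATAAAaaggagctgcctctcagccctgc
S100A9: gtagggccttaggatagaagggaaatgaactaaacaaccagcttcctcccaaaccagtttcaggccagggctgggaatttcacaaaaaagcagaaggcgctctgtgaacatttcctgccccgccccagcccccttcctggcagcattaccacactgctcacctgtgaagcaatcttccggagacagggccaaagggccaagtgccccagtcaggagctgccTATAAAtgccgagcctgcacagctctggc
S100A6: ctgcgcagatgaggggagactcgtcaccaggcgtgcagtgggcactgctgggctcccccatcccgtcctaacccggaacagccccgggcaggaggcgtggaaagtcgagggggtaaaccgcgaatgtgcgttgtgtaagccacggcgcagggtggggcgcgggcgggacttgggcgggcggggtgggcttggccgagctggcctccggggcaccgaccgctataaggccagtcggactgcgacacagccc
S100A16: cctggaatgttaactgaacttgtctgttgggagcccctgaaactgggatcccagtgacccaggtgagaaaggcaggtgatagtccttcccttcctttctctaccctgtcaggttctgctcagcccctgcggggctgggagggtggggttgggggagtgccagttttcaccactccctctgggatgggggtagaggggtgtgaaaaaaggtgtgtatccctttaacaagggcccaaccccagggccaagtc

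In S100A8 and S100A9 the TATAAA lies at the same place, bases 29 to 24 before the start, although the genes are read from opposite strands. Matches stood in 4 of the 10 members' windows, the others being S100A4 (bases 31 to 26) and S100A7 (bases 28 to 23), against 10.8% of the 34943 promoter windows of this length searched on both strands. The S100A6 and S100A16 windows held no such match. Further motifs were sparse. TGANTCA, the AP-1 motif, was found only in S100A2 (as TGACTCA, bases 52 to 46) and in 6.59% of all windows. TTGCNNAA, a C/EBP motif, was found only in S100A11 (bases 33 to 26, on the opposite strand) and in 9.06%. The NF-kB motif, of 10 letters, was found only in S100A14 (as GGGGTTTCCC, bases 202 to 193) and in 5.05%. No member's window held matches of different motifs. A match describes letters only.

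Per kilobase of merged exons, S100A6 (calcyclin) had the highest level of the 10 genes in every library, 15.04 to 16.03 on the log2 scale. S100A2, known as a p63 target in basal epithelia, followed at 13.24 to 14.07. S100A11, a partner of annexin A1, lay at 13.05 to 13.80 and S100A10, the light chain of the annexin A2 complex, at 12.73 to 13.37. The ranges of these last 3 genes overlapped across the libraries. Within each library, though, S100A2 was the highest of the 3 and S100A10 the lowest. S100A16, a broadly expressed member, stood alone in the middle at 10.68 to 11.29. S100A9 (7.995 to 9.997), S100A14 (7.51 to 8.49) and S100A8 (6.31 to 8.30) overlapped one another. S100A4, a partner of non-muscle myosin, was lower at 5.51 to 6.16, and S100A7 (psoriasin) was near the floor at 0.91 to 1.08. The calprotectin genes thus sat several log2 units under the annexin partners in all libraries.

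**Figure D1:**
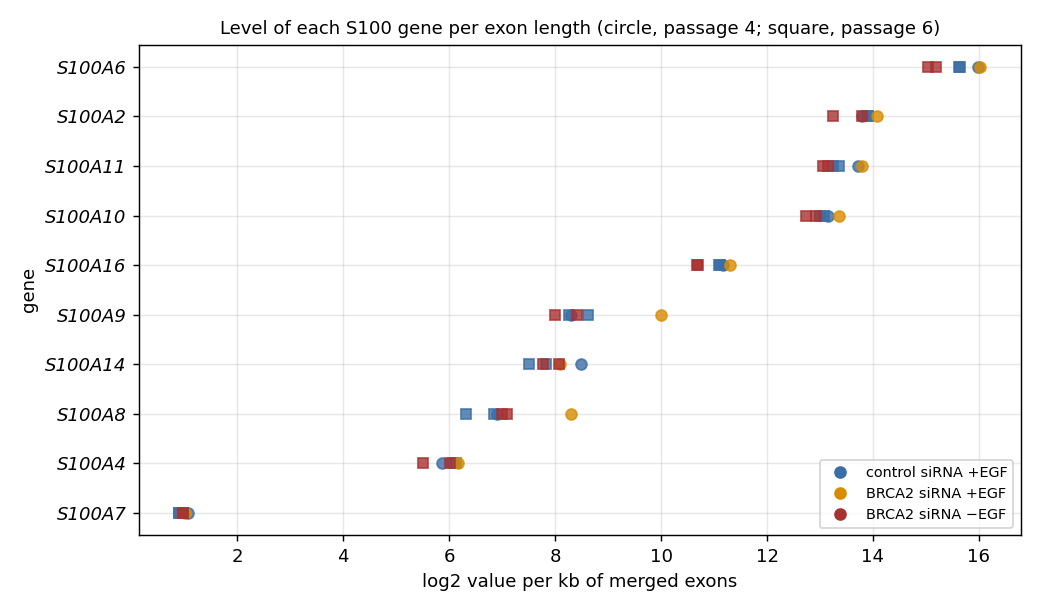
Level of each of the 10 S100 genes as log2 value per kilobase of merged exons (horizontal axis), 1 point per library, coloured by siRNA and medium, circles for passage 4 and squares for passage 6. S100A6 is highest at 15.04 to 16.03, S100A7 lowest at 0.91 to 1.08, and the S100A8 and S100A9 points of the library labelled BRCA2-2 with EGF stand to the right of their other points.

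S100A8 and S100A9 were highest in the library labelled BRCA2-2 with EGF. S100A9 measured 7.50, 7.83 and 7.48 in controls P4, A and B, 9.20 in that library, and 7.62 and 7.20 in replicates A and B without EGF. S100A8 measured 6.91, 6.85 and 6.32 in controls P4, A and B, 8.31 in that library, and 7.10 and 7.005 in replicates A and B without EGF. In both genes that 1 library stood above all 5 others, while the remaining libraries lay within 1 log2 unit of each other. The distance to the next library was 1.37 for S100A9 and 1.22 for S100A8. Only 20 of the 14763 tested genes (0.135%) stood at least 1 above every other library there, a margin chosen after the values were seen.

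Against the 3 controls, S100A9 was 1.60 ± 0.249 higher (SE, limma), a fold of 3.04, with an unadjusted p of 0.000771. S100A8 was 1.62 ± 0.275 higher, a fold of 3.07, with an unadjusted p of 0.00121. Neither passed adjustment over all tested genes (limma, Benjamini-Hochberg adjusted p = 0.9997 for both). In this comparison of 1 library against 3, limma called 0 genes (0% of 14763), 412 genes had an unadjusted p below 0.05, and the spread of the lone library is assumed to be that of the other groups. Against control P4 alone, the library of the same passage and medium, S100A9 was 1.70 and S100A8 1.41 higher, with no replicate check.

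All 9 tested members had values above the control mean in that library, against 48.6% of all tested genes. The median difference of the 9 was 0.27, against -0.01 over all genes. Outside S100A8 and S100A9 the differences were small, from 0.14 for S100A4 to 0.36 for S100A11. Against control P4 alone, of the same passage, S100A14 differed by -0.38. Every other tested member differed by a value above 0, down to 0.07 for S100A11 and 0.04 for S100A6. The library labelled BRCA2-2 with EGF was the highest of the 6 for 8 of the 9 members, against 14.2% of all tested genes. The exception was S100A14, an epithelial member, which was highest in control P4. The members come from the same single library, so these counts are not separate observations.

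Markers of other cells were read beside these values. Of 9 myeloid markers 0 passed the filter. MPO, TYROBP and CSF3R were 0 in all libraries, LYZ and ELANE lay between -1.98 and -1.94, and the summed level of the list was 4.48 to 4.595 throughout. In the library labelled BRCA2-2 with EGF, CD14 was 3.21, the highest of the 6 libraries, FCER1G 2.93, PTPRC 2.00 and ITGAM 1.48. The part of myeloid RNA in the S100A8 and S100A9 values was not tested. Fibroblast markers did differ: their summed level was 11.13 to 11.36 among control libraries, 12.09 in the library labelled BRCA2-2 with EGF, and 12.75 and 12.79 without EGF. Of 10 fibroblast markers 8 were tested, and DCN reached 10.11 and LUM 8.82 in the library labelled BRCA2-2 with EGF, against at most 9.10 and 8.10 elsewhere. These were the 2 of 8 that peaked there, while COL1A1, COL3A1, PDGFRB, THY1, DPT and FAP were highest in a library without EGF. The part of fibroblast RNA in the S100 values was not tested.

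Genes of the activated keratinocyte state, which S100A8 and S100A9 accompany in wounded skin, gave a mixed picture in that library. Of 13 listed genes 8 were tested, 0 were called and 7 lay above the control mean, with a median difference of 0.76 against -0.01 over all genes. The neutrophil chemokine CXCL8 measured 9.26, 9.48 and 9.23 in controls P4, A and B, 11.77 in the library labelled BRCA2-2 with EGF, and 8.52 and 8.90 without EGF. CXCL8 thus followed the order of S100A9 at the top, with the groups not overlapping (difference 2.45 from the controls, limma adjusted p = 0.469). The protease inhibitor SERPINB3 was 1.87 higher and the cytokine IL1B 0.995 higher, neither past the threshold. SERPINB3 was low, at 4.74 in the library labelled BRCA2-2 with EGF and 2.66 to 3.27 elsewhere. Its linear mean of 10.95 passed the filter only through that library, so its place among the 7 is not independent of its high value there. KRT16, a keratin of activated keratinocytes, did not share the pattern, with its lowest value (9.32) in that library and its highest without EGF (11.22 and 11.06).

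**Figure D2:**
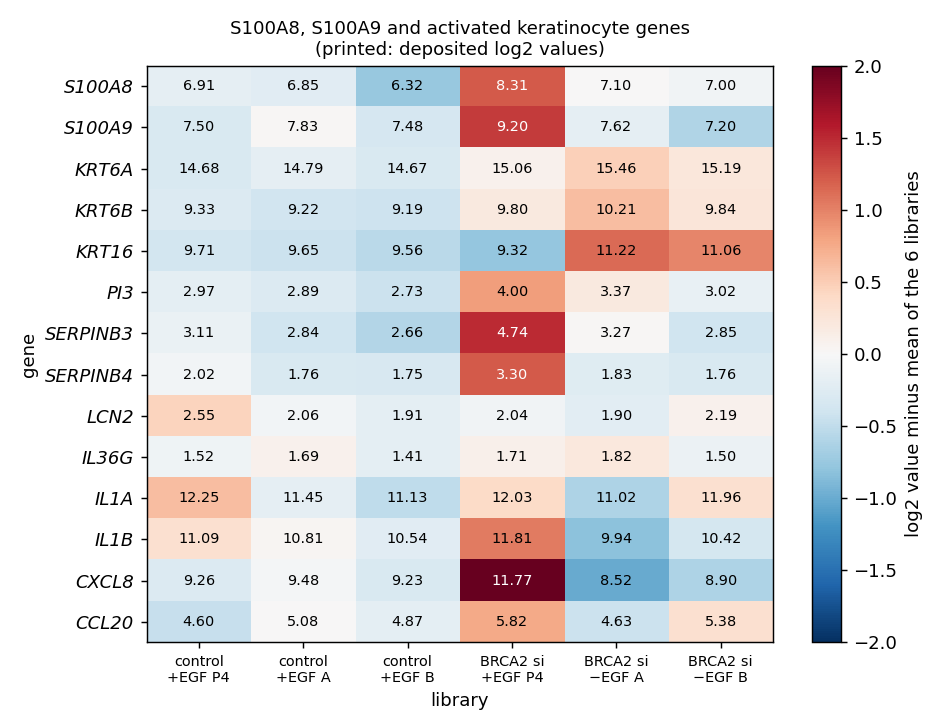
Deposited log2 values (printed) of S100A8, S100A9 and the activated keratinocyte genes that are not 0 in every library, 1 column per library, coloured by the distance from the gene's mean over the 6 libraries. S100A8, S100A9, CXCL8 and SERPINB3 are reddest in the library labelled BRCA2-2 with EGF, whereas KRT16 is reddest in the 2 libraries without EGF.

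Over the 6 libraries S100A8 and S100A9 correlated with a Pearson r of 0.873, a description that leans on their shared high library. S100A9 had the largest range of the members, and the tested genes of mean at least 50 (11817) were ranked by their likeness to it. GSDMC, a gasdermin, came first at r = 0.996, with 5.84, 6.16 and 5.96 in controls P4, A and B, 7.61 in the library labelled BRCA2-2 with EGF, and 6.11 and 5.63 without EGF. USB1, an RNA processing enzyme, and KLF10, a zinc finger transcription factor, followed at 0.985 and 0.981 over the same 6 libraries. Each of the 3 genes was highest in the library where S100A9 was, which their selection by likeness to S100A9 largely fixed in advance.

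**Figure D3:**
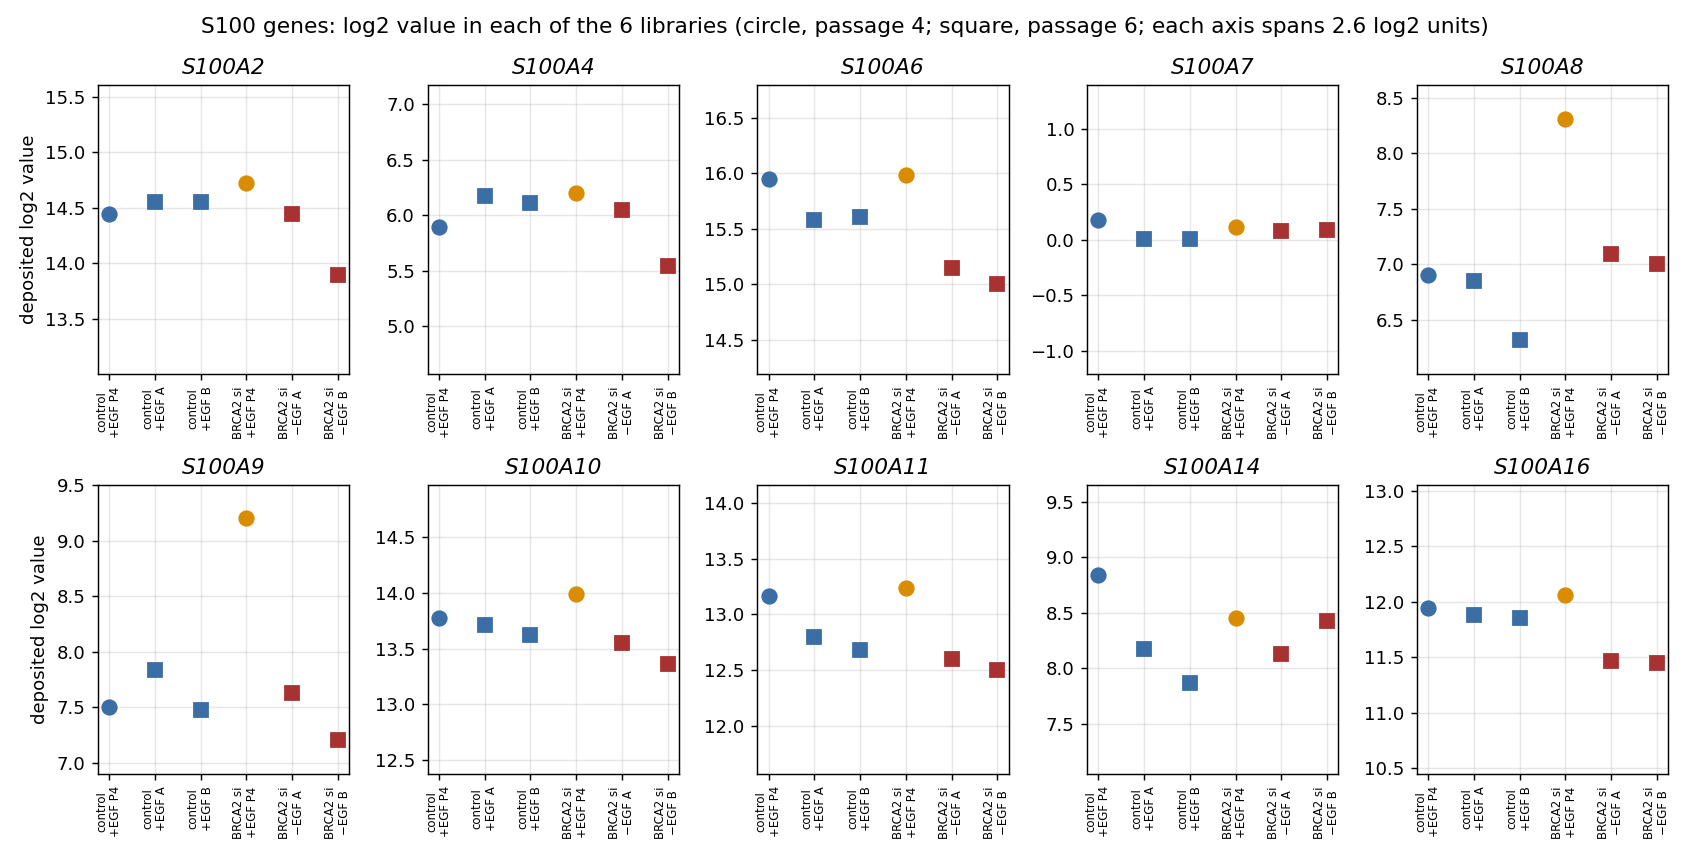
Deposited log2 value (vertical axis, spanning 2.6 log2 units in every panel) of each S100 gene in the 6 libraries, coloured by siRNA and medium, with circles for passage 4 and squares for passage 6. S100A8 and S100A9 peak at 8.31 and 9.20 in the library labelled BRCA2-2 with EGF, and S100A6 and S100A16 are lowest in the 2 libraries without EGF.

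In the cells with BRCA2 siRNA and no EGF, the abundant members S100A6 and S100A16 lay below all other libraries. S100A6 measured 15.95, 15.58 and 15.61 in controls P4, A and B, 15.99 in the library labelled BRCA2-2 with EGF, and 15.15 and 15.00 in replicates A and B without EGF. S100A16 measured 11.94, 11.88 and 11.85 in controls P4, A and B, 12.06 in the library labelled BRCA2-2 with EGF, and 11.46 and 11.45 in replicates A and B without EGF. Neither gene's libraries without EGF overlapped the controls, and the S100A16 replicates differed by only a small part of their distance to the controls.

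With passage matched, 2 libraries without EGF against controls A and B, both fell. S100A6 fell by 0.52 ± 0.0824 (SE), 1.43-fold lower (limma adjusted p = 0.0380), and S100A16 fell by 0.41 ± 0.0703, 1.33-fold lower (limma adjusted p = 0.0430). These 2 of 9 tested members stand beside 959 of 14763 genes called (6.5%), 426 lower (2.89%) and 533 higher (3.61%). This version of the comparison was added after the data were seen. Against all 3 controls the differences were -0.64 ± 0.165 for S100A6 (limma adjusted p = 0.171) and -0.44 ± 0.108 for S100A16 (adjusted p = 0.155), and 0 of 9 members were called. There limma called 146 of 14763 genes (0.989%), 126 higher (0.853%) and 20 lower (0.135%), and 2 members and 2534 genes had an unadjusted p below 0.05. The passage-matched calls need both controls A and B: leaving out either, or averaging them, gave adjusted p-values of 0.398 to 0.533 for S100A6 and S100A16. Both also missed with no filter on low values (0.0989 and 0.0910), and S100A16 with quantile normalisation, a plain prior or a replicate block (0.0585 to 0.0795).

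Markers of cell types moved in the comparisons without EGF too. Of 8 tested basal markers, 4 were called higher at passage 6, and 0 against all 3 controls. At passage 6, 7 of the 8 lay above the control mean, with a median of 0.78 against -0.02 over all genes. Luminal KRT18 fell by 0.85 at passage 6 (limma adjusted p = 0.0165), the 1 of 5 tested luminal markers called. Of 8 tested fibroblast markers, 5 were called higher at passage 6 and 4 against the 3 controls. Of all tested genes, 3.61% were called higher and 2.89% lower at passage 6, and 0.853% higher against the 3 controls. Their part in the S100A6 and S100A16 differences was not tested.

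The other abundant members pointed the same way without passing. S100A10 measured 13.77, 13.71 and 13.62 in controls P4, A and B, 13.99 in the library labelled BRCA2-2 with EGF, and 13.55 and 13.36 without EGF. S100A11 measured 13.17, 12.80 and 12.68 in controls P4, A and B, 13.24 in the library labelled BRCA2-2 with EGF, and 12.60 and 12.50 without EGF. For both genes the libraries without EGF were the lowest, but by less than 0.1 from the nearest control. Against the 3 controls S100A10 differed by -0.25 ± 0.130 and S100A11 by -0.33 ± 0.176 (limma adjusted p = 0.384 and 0.387).

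S100A2 and S100A4 were low in replicate B without EGF only. S100A2 measured 14.44, 14.55 and 14.55 in controls P4, A and B, 14.72 in the library labelled BRCA2-2 with EGF, and 14.44 and 13.89 in replicates A and B without EGF. S100A4 measured 5.90, 6.17 and 6.11 in controls P4, A and B, 6.20 in the library labelled BRCA2-2 with EGF, and 6.05 and 5.54 in replicates A and B without EGF. In each gene replicate A sat at the level of a control and replicate B stood apart. Their differences from the 3 controls, -0.35 for S100A2 and -0.26 for S100A4 (limma adjusted p = 0.394 and 0.541), shrank to -0.07 and -0.01 without replicate B.

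S100A8 was the sole tested member above the controls without EGF, by 0.36 ± 0.218 (limma adjusted p = 0.443), with libraries that lay wholly above the controls, as did those of 18.1% of all tested genes. S100A9 differed by -0.19 and S100A14 by -0.01, and the libraries of both overlapped the controls. In all, 8 of 9 tested members lay below the control mean, against 53.9% of all tested genes. The libraries without EGF lay wholly below the controls for 5 of 9, against 23.9% of genes. S100A2 is among the 5 by a margin in the third decimal. The same 5 members lay below all 4 other libraries, against 22.2% of genes. At passage 6 alone, 7 of 9 members lay below the control mean (52.7% of genes) and 6 of 9 without overlap (35.7%). The median difference of the 9 was -0.26, against -0.03 over all genes.

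**Figure D4:**
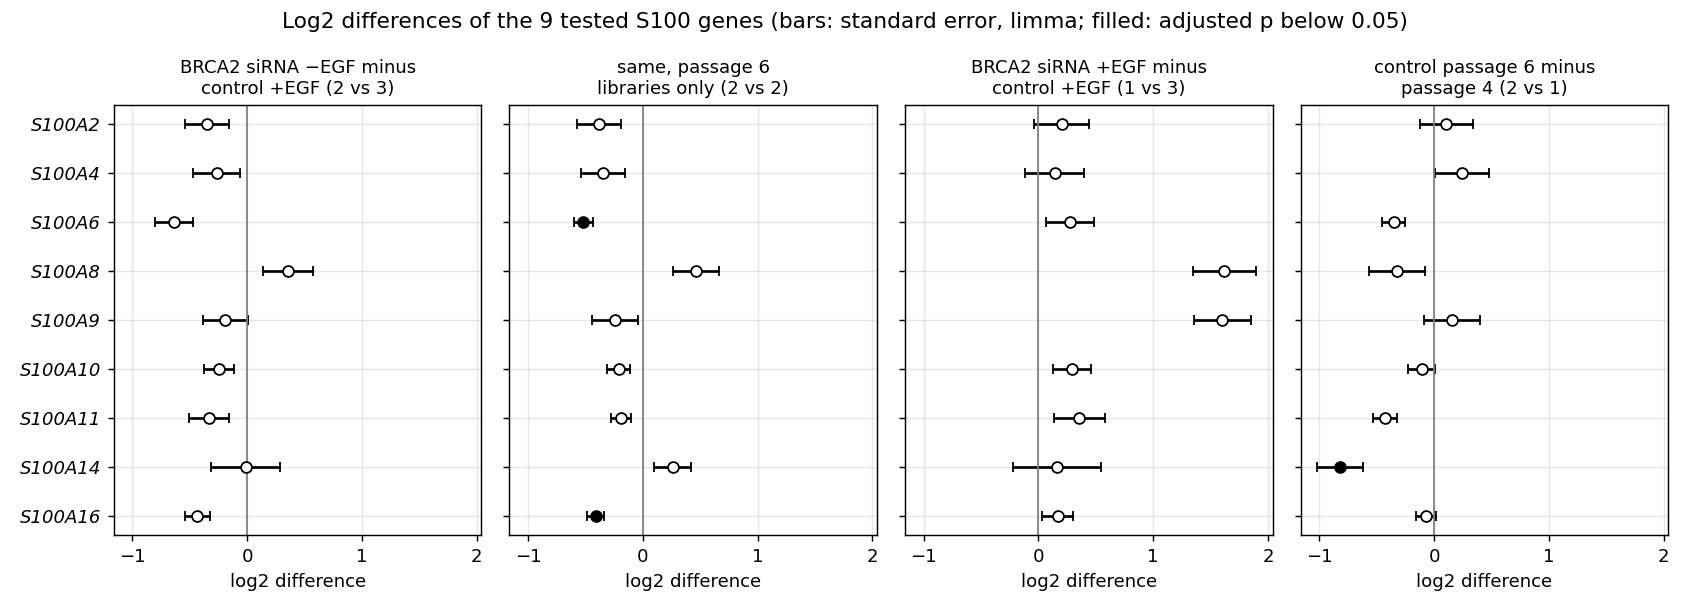
Log2 differences of the 9 tested S100 genes in 4 comparisons, each point with its limma standard error, filled where the adjusted p is below 0.05. S100A6 and S100A16 are filled at passage 6 only, S100A14 is filled between passages of the control, and S100A8 and S100A9 stand far to the right, unfilled, in the library labelled BRCA2-2 with EGF.

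Compared with the library labelled BRCA2-2 with EGF, all 9 tested members had lower values without EGF, against 52% of all tested genes. The contrast crosses passages 4 and 6 and shares its single library with the comparison against the controls, so both carry that library's high values. S100A9 differed by -1.79 ± 0.264 (limma adjusted p = 0.0755), S100A8 by -1.26 and S100A6 by -0.91. The other members lay between -0.69 for S100A11 and -0.18 for S100A14, and the median was -0.60 against -0.02 over all genes. Of the 9, 0 were called, beside 30 of 14763 genes (0.203%), 26 higher (0.176%) and 4 lower (0.0271%). In the same fit 6 members and 2423 genes had an unadjusted p below 0.05. Control P4 enters this contrast only through the estimate of the spread. Without control P4, that estimate rested on controls A and B, which lay close together, and on the replicates without EGF. Far more genes then passed the threshold, members among them. CXCL8 was called lower in the full fit, by 3.06 ± 0.224 (limma adjusted p = 0.0233), and this call was lost with the replicate block (0.2101) or without either replicate lacking EGF (0.254 and 0.287).

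Between passages of the control cells, S100A14 was the only member called, just under the threshold, in a comparison where 20.1% of all tested genes were called. S100A14 measured 8.84 in control P4 and 8.17 and 7.86 in controls A and B, with 8.45 in the library labelled BRCA2-2 with EGF and 8.13 and 8.43 without EGF. Control P4 was the highest of the 6. S100A14 fell by 0.82 ± 0.197 from passage 4 to passage 6 (limma adjusted p = 0.04996), the 1 of 9 tested members called, beside 2963 of 14763 genes (20.1%), 1825 lower (12.4%) and 1138 higher (7.71%). In all, 6 of 9 members lay below the passage 4 value, against 52.4% of genes. The comparison has 1 library at passage 4, and the call for S100A14 was lost in 7 of 13 alternatives (adjusted p = 0.0537 to 0.253), among them both other scalings and leaving out control A or B. S100A11 differed by -0.43 ± 0.105 (limma adjusted p = 0.0518) and S100A6 by -0.35 ± 0.0996 (adjusted p = 0.0673), neither past the threshold. For the other members the passage differences ran from -0.32 for S100A8 to 0.24 for S100A4, and the median of the 9 was -0.11 against -0.03.

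S100A7 was listed at 0.18, 0.01 and 0.01 in controls P4, A and B, 0.11 in the library labelled BRCA2-2 with EGF, and 0.07 and 0.09 without EGF. These values are near the floor and show no order. Its near-identical neighbour S100A7A and the pseudogene S100A7L2 were listed at 0 in all libraries, so reads shared between copies cannot be told apart here.

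Of 11 further S100 genes 2 were tested, S100A3 and S100A13. S100A13 measured 9.20, 9.22 and 9.13 in controls P4, A and B, 9.44 in the library labelled BRCA2-2 with EGF, and 8.82 and 8.76 without EGF. As with S100A16, its libraries without EGF lay below all others, as did those of 22.2% of tested genes. S100A13 was not called at passage 6 (difference -0.38 ± 0.0822, limma adjusted p = 0.0624). S100A3 lay between 7.08 and 7.64, with replicate A without EGF highest and overlapping groups. S100A1 (2.10 to 2.43), S100A5 (1.24 to 1.44) and S100A12 (1.38 to 1.97) were below the filter, and S100G and S100P lay between -1.51 and -1.40. S100B and S100Z were 0 in all libraries. S100A12 lies between S100A9 and S100A8 and, like them, was highest in the library labelled BRCA2-2 with EGF, at 1.97.

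Neighbouring members did not share 1 order of the libraries. In RefSeq order along chromosome 1, S100A10 and S100A11 are followed by 47 other protein-coding genes, then S100A9, S100A12, S100A8, S100A7A, S100A7L2, S100A7, S100A6, S100A5, S100A4, S100A3, S100A2, S100A16, S100A14, S100A13 and S100A1. S100A6 and S100A16, which fell at passage 6, are 5 places apart. Between them S100A4, S100A3 and S100A2 were not called, and S100A5 was below the filter and not tested. S100A16 and S100A14 are direct neighbours and differed in order: S100A16 was lowest without EGF, S100A14 in control B. RefSeq shows overlaps of S100A8 with S100A7A, of S100A5 with S100A4 and of S100A13 with S100A1. Whether counting used the strand is not given in the sources used here, so values of those pairs are uncertain where both genes have reads.

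**Figure D5:**
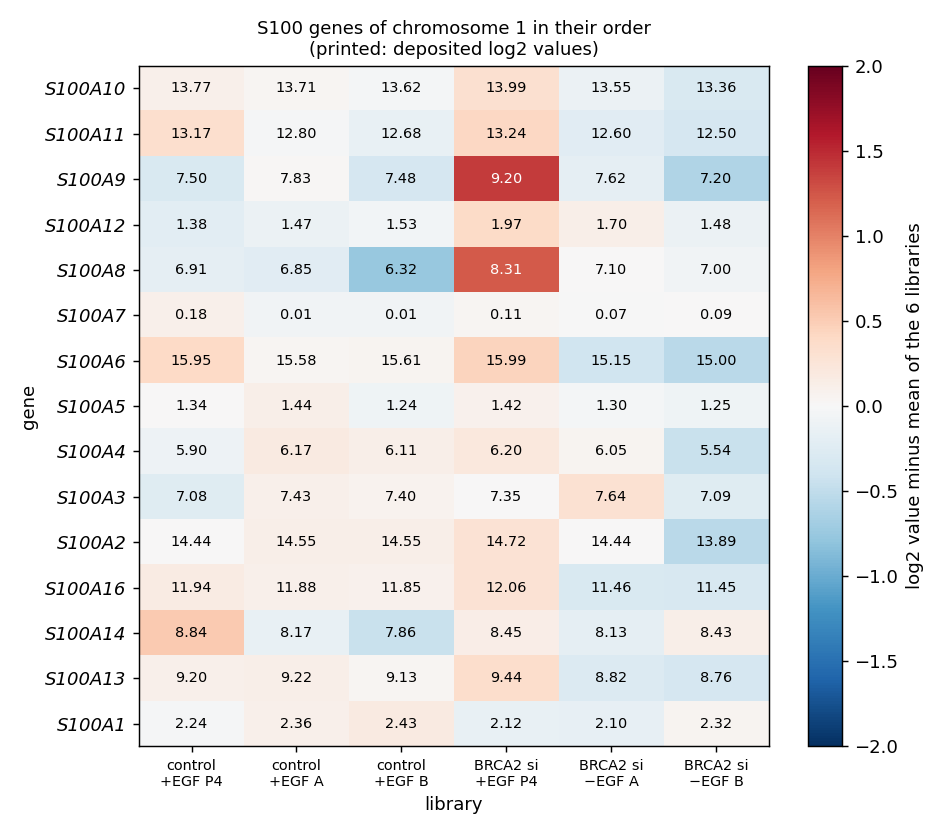
Deposited log2 values (printed) of the S100 genes of chromosome 1 that are not 0 in every library, in their chromosome order, coloured by distance from the gene's mean over the 6 libraries. Red cells of S100A9 and S100A8 mark the library labelled BRCA2-2 with EGF, and S100A6 shows blue cells in the 2 libraries without EGF.

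Intracellular partners of S100 proteins were mostly not called. Of 8 tested genes 0 were called against the 3 controls, 6 lay below the control mean and the median difference was -0.20 against -0.03. ANXA6, a membrane-binding annexin, measured 10.40, 10.29 and 10.22 in controls P4, A and B, 10.55 in the library labelled BRCA2-2 with EGF, and 9.72 and 9.42 without EGF. As with S100A6, its libraries without EGF lay below all others, as did those of 22.2% of tested genes. ANXA6 fell by 0.69 ± 0.122 at passage 6 (limma adjusted p = 0.0475), a call lost in 8 of 12 alternatives (adjusted p up to 0.348). CACYBP, the calcyclin-binding protein, differed by -0.60 at passage 6 (adjusted p = 0.0534), short of the threshold. ANXA2, the partner of S100A10, differed by -0.38 (adjusted p = 0.117), and ANXA1, the partner of S100A11, by -0.09. AHNAK, a scaffold bound by the S100A10 complex, rose by 0.52 ± 0.0811 between passages of the control (adjusted p = 0.0262), a call lost in 5 of 13 alternatives (up to 0.2495).

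Of 9 tested receptors of extracellular S100 proteins, 0 were called against the 3 controls, and the median difference was 0.18 against -0.03. TLR4, a receptor of S100A8 and S100A9, measured 5.54, 7.26 and 7.51 in controls P4, A and B, 6.22 in the library labelled BRCA2-2 with EGF, and 5.28 and 4.99 without EGF. Controls A and B were high and all others low, unlike S100A8 and S100A9. TLR4 rose by 1.85 ± 0.195 between passages of the control (limma adjusted p = 0.0231) and fell by 2.25 ± 0.158 in the passage 6 comparison (adjusted p = 0.00875). The first TLR4 call was lost in 4 of 13 alternatives (adjusted p up to 0.206) and the second only with no filter on low values (0.0589). AGER, the receptor RAGE, lay between 5.80 and 6.56 and was lowest in the library where S100A8 and S100A9 were highest. MCAM, a surface adhesion molecule that binds S100A8 and S100A9, rose by 0.65 between passages of the control (adjusted p = 0.0476), a call lost in 7 of 13 alternatives (up to 0.2495).

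Near the S100 genes in the epidermal differentiation complex, cornified envelope genes split. Of 12 listed genes 6 were tested and 1 was called higher without EGF against the 3 controls: SPRR1B, a cross-linked envelope protein, at 3.02, 2.76 and 2.74 in controls P4, A and B, 2.94 in the library labelled BRCA2-2 with EGF, and 4.31 and 4.21 without EGF. Its rise of 1.42 ± 0.144 (limma adjusted p = 0.0207) was opposite in sign to S100A6 and S100A16. SPRR1B was a low gene, with a linear mean of 11.25 over all libraries, just past the filter. Only its libraries without EGF lifted it past, so its entry to the test was not independent of its rise. With no filter on low values the limma adjusted p was 0.0291. The SPRR1B call was lost in 6 of 15 alternatives, among them controls A and B averaged (0.0704) and the replicate block (0.0923). Between passages of the control, LCE3D, SPRR2A and SPRR2D fell by 0.72, 0.76 and 1.89 (adjusted p = 0.0322, 0.0360 and 0.049), calls that were lost in 4, 5 and 7 of 12 alternatives (up to 0.2346 for SPRR2A). IVL, involucrin, differed by -0.25 without EGF and was low in replicate B only (5.69). Of 7 fused-type S100 genes, whose EF-hand head carries long repeats, 2 were tested. FLG (filaggrin) rose by 0.71 at passage 6 (limma adjusted p = 0.0376), a call lost in 5 of 11 alternatives (up to 0.298). FLG was also low, at 3.13 to 3.50 with EGF and 3.91 and 4.02 without EGF. Its linear mean of 11.7 passed the filter only through the libraries without EGF, so its entry to the test was not independent of its rise.

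Transcription factors that act on epidermal S100 genes also went both ways without EGF. Of 12 listed 10 were tested, with 1 called higher and 1 lower against the 3 controls. FOSL1, an AP-1 subunit, measured 11.52, 11.74 and 11.76 in controls P4, A and B, 11.74 in the library labelled BRCA2-2 with EGF, and 10.55 and 10.19 without EGF. It fell by 1.30 ± 0.158 (limma adjusted p = 0.0321). As with S100A6 and S100A16, its libraries without EGF lay below all others, as did those of 22.2% of tested genes. A link between FOSL1 and these S100 genes was not tested. GRHL3, an epidermal differentiation factor, rose by 1.77 ± 0.217 (adjusted p = 0.0325). The FOSL1 and GRHL3 calls were each lost in 7 of 16 alternatives, among them no filter (0.0593 and 0.0578), controls A and B averaged (0.0994 and 0.0755) and the replicate block (0.151 and 0.115). TP63, the basal regulator of S100A2, was 0.72 higher and did not pass (adjusted p = 0.280), while the difference of S100A2 was -0.35. In the activated keratinocyte list 1 of 8 was called against the 3 controls, KRT16, which rose 2.83-fold (adjusted p = 0.0121). The KRT16 call was lost in 6 of 16 alternatives, among them controls A and B averaged (0.0526) and the replicate block (0.0716).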

How the data were processed

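Polyadenylated RNA of 6 hTert-HME1 libraries was made into sequencing libraries with a ScriptSeq kit, per the labels' protocols. The submitters' processing notes name TopHat2 2.0.11 as a tool, DESeq2 without a version, and hg19. How reads were counted and transformed is not given in the sources used here. Used were the normalised log2 values that the authors deposited for 57820 Ensembl gene rows, of which 25986 were 0 in all libraries. Depth per library is unknown, so no counting interval is given, and a shrinking transformation would understate differences of low genes.

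The labels gave the groups: 3 libraries of control siRNA with EGF, 1 of BRCA2 siRNA with EGF and 2 of BRCA2 siRNA without it. Genes whose values averaged at least 10 on the linear scale (14763) were fitted on the log2 values with limma 3.58.1 in R 4.3.3 (lmFit, eBayes with trend and robust prior), two-sided, with Benjamini-Hochberg adjustment over all of them and a threshold of 0.05. The procedure was tested on simulated data. The passage comparison used 1 level per siRNA, medium and passage. Errors are limma standard errors unless called SD. Symbols were matched for 96.4% of tested rows through a table of Ensembl identifiers, and of 127 listed genes 1 was not matched. Levels per kilobase used merged exon lengths from a reference annotation, not the authors' own.

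Members and lists were chosen with earlier results of these data known. All members are named; from other lists, genes past the threshold and the 2 largest differences against the 3 controls at a mean of at least 20, plus some named after their values were seen (such as SERPINB3, IL1B, ANXA1, ANXA2, AGER, TP63 and the markers). Alternatives covered the filter, the scaling, the prior, passage, the replicate block and each library left out. The labels share only the letters A and B between groups.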

Additional observations from a re-analysis of the deposited data

How the results depend on the processing

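Of 621 differences of the tested members recomputed under the alternatives, 558 kept their direction and side of the threshold, 18 lost a call, 30 gained one and 15 changed sign. The calls rest on few libraries; depth is unknown, so what it limits could not be computed. Where a setting moved a value, the cause was not tested.

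For BRCA2 siRNA without EGF against control siRNA with EGF, 146 genes were called. The count was 87 with no filter on low values, 94 with a mean of at least 50, 950 with a passage term, 959 with the passage 6 libraries only, 37 with controls A and B averaged and 0 to 951 with each library left out. Members called went from 0 to 2 with the passage term and at passage 6 only, and were 0 to 2 with each library left out (2 without control P4: S100A6 and S100A16). For the passage 6 comparison, 959 genes and 2 members were called. These became 78 and 0 with no filter and 49 and 0 with controls A and B averaged. Members called were 1 with quantile normalisation and 1 without trend or robust prior. With each library left out, genes ran from 45 to 8953 and members from 0 to 8.

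For BRCA2 siRNA without EGF against BRCA2 siRNA with EGF, 30 genes were called, with 18 under no filter, 13 at a mean of at least 50, 56 without trend or robust prior, 569 with a passage term, 11 with controls A and B averaged and 0 to 2404 with each library left out (members 0 to 6). For control passage 6 against control passage 4, 2963 genes and 1 member were called. Genes fell to 0 with no filter and with controls averaged, and ran from 0 to 9849 with each library left out. Members called were 0 with no filter, quantile normalisation, equal library medians, no trend or robust prior, and controls averaged, 2 at a mean of at least 50, and 0 to 5 with each library left out. For BRCA2 siRNA with EGF against control siRNA with EGF the count was 0 under every alternative run.

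The replicate letters were not shown to pair the libraries: the A minus B differences of the 2 groups correlated at -0.172 over 14763 genes. With a replicate block the counts were 6 genes for the first comparison, 0 for BRCA2 siRNA without against with EGF, and 1 member for the passage 6 comparison. With a crossed replicate block they were 10 genes for BRCA2 siRNA without against with EGF and 1781 for the passage 6 comparison.

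S100A14 changed sign most often. For S100A14 the difference without EGF against the controls became 0.036 with library medians set equal, 0.26 with the passage term, at passage 6 only and without control P4, 0.0264 with the replicate block, 0.0689 with the crossed block, and -0.23 to 0.26 with each library left out. S100A14 in BRCA2 siRNA with EGF against the controls became -0.38 with the passage term, -0.0027 with the crossed block and -0.052 to 0.44 with each library left out (the lowest without control B). Without against with EGF, S100A14 became 0.64 with the passage term and 0.0716 with the crossed block. S100A3 became -0.0538 with the passage term and at passage 6 only (-0.22 to 0.33 with each library left out). S100A9 ran from -0.40 to 0.0224 with each library left out (the highest without replicate B without EGF), and IVL from -0.89 to 0.40. Between passages, S100A2 became -0.0305 with the crossed block and S100A9 ran from -0.0232 to 0.35 with each library left out (the lowest without control A).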
